A study of Mus musculus with 12 samples.

Results

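The H3K27me3 sites described here are 5691 narrower sites at promoters of protein-coding genes, out of 101389 sites listed for the whole series. A site was taken if it lay on chromosomes 1 to 19, was under 10000 bp wide, and shared at least 1 bp with the 1 kb on either side of a transcription start site (TSS) of a protein-coding transcript. The sites were thus chosen by their position and width as listed, and both are given as a description. Chromosomes 1 to 19 carried 96090 listed sites, of which 93740 met the width limit.

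Trimethylation of lysine 27 of histone H3 (H3K27me3) was measured by ChIP-seq, that is, sequencing of DNA pulled down with an antibody, in FKBP-ASH2L iMEF cells. These are immortalized mouse embryo fibroblasts in which the endogenous Ash2l gene was knocked out and a human ASH2L, fused to an FKBP domain and brought in by lentivirus, took its place, and the study used the cell clone NG3. All groups share this background and differ only in dTAG-13, a small molecule that recruits the fusion protein to the degradation machinery: H3K27me3 was measured in 2 untreated libraries and in 2 libraries each at 16 h, 24 h and 48 h of dTAG-13, and input chromatin in 2 untreated libraries and 2 libraries at 48 h. The authors deposited 1 list of sites found across the samples, with no value for any library, so that neither a change with dTAG-13 nor a spread between replicates can be read from it, and the sequencing depth behind a site is unknown. A separate list of sites that changed was not used here.

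H3K27me3 is written by Polycomb repressive complex 2 and is typical of genes that a cell type keeps silent, among them regulators of other lineages. In mammals the complex accumulates at CpG islands (CGIs), stretches in which the dinucleotide CpG has escaped the depletion seen in the rest of the genome. CGIs are also the promoters of most housekeeping genes, which as a rule carry H3K4me3, the mark of the COMPASS/KMT2 complexes to which ASH2L belongs, and little H3K27me3. Sites over Polycomb target loci can run over many kilobases. The narrower sites considered here are those listed at under 10000 bp, and most of them lie within 3 kb of another listed site.

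The sequence in front of the start site differed widely among these promoters. The following stretches are the 200 bp just upstream of the TSS in the direction of transcription, from the mouse genome GRCm38 (mm10), with every CpG in capitals. They show the span from a dense CGI to promoters that lack one, and each lies wholly inside a narrower site that contains the TSS.
Insm1: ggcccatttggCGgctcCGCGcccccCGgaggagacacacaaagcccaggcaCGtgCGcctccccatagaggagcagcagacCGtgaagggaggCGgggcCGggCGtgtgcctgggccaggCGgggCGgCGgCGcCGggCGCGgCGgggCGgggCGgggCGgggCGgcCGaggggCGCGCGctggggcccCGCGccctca
Pcdh8: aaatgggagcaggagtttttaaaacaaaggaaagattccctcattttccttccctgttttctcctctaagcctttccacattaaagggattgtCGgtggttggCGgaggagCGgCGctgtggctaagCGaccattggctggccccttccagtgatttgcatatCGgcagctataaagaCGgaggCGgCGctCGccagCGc
Kcnk13: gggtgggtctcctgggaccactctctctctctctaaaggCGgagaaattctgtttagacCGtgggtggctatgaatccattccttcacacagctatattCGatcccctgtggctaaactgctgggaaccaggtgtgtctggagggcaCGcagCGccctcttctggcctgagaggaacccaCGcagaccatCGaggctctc
Cldn14: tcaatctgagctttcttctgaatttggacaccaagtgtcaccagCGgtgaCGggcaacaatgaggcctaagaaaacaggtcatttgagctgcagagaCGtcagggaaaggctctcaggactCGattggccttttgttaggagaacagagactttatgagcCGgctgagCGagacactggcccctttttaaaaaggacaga
Nkpd1: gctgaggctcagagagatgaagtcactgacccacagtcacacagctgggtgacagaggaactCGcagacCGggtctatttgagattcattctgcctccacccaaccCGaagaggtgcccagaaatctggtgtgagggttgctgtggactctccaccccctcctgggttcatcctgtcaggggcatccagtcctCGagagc

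Insm1, which encodes a zinc finger factor of neuroendocrine cells, had the most CpGs of these stretches, 28 in the 200 bp (chr2:146221721-146221920, plus strand). Its site ran from 146220458 to 146229439 over 8982 bp and spanned a whole CGI of 2583 bp with 307 CpGs. Pcdh8, a protocadherin gene, had 11 CpGs (chr14:79771313-79771512, minus strand), and its site of 9392 bp covered a CGI of 2966 bp that lies mostly downstream of the TSS. Kcnk13, a gene for a potassium channel of the tandem-pore family, had 7 CpGs (chr12:99964299-99964498, plus strand). The stretches of Cldn14 (chr16:94008838-94009037, minus strand) and Nkpd1 (chr7:19517638-19517837, plus strand) had 6 and 4 CpGs. Cldn14 codes for a claudin of tight junctions. Neither of these last promoters had a CGI within 1 kb, and neither site, of 7865 bp for Cldn14 and 9533 bp for Nkpd1, had another listed site within 10 kb.

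The narrower promoter sites had a median width of 2076 bp (95% interval of the median 1976 to 2163 bp), with quartiles of 736 and 4462 bp. Intervals of medians come from binomial order statistics and those of shares are Wilson intervals at 95%. They cover counting error over sites only and treat neighbouring sites as independent, which they are not. The widest site, at Kcnk13, measured 9999 bp and the narrowest sites 200 bp, a width held by 59 of them. At the width limit, 147 sites were at least 9000 bp wide, and 129 sites at protein-coding promoters were from 10000 to under 11000 bp and so fell outside. The first of those outside, at Tox2, measured 10011 bp. At the other limit, 227 sites came no nearer to a TSS than 900 bp, and for a further 204 narrower sites the nearest TSS was over 1000 and up to 1100 bp away.

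A TSS of a protein-coding transcript lay inside 3466 of the 5691 sites (60.9%, 59.6% to 62.2%). Another 1073 sites (18.9%) lay wholly upstream of the nearest TSS and 1152 (20.2%) wholly downstream. Containment went with width: a TSS lay inside 20.3% of the 948 sites under 500 bp, 54.6% of the 971 sites from 1000 to under 2000 bp, and 91.3% of the 1190 sites of 5000 bp or wider. Width and distance were both limited by the way the sites were chosen, and wider sites reach farther. By their centre, 49.5% of the sites were intronic, 24.4% intergenic, 11.4% in coding sequence and 10.1% in untranslated exon sequence of a protein-coding transcript.

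Sites with the most upstream TSS of their gene inside reached farther into the gene than away from it. In 2553 such sites, each near TSSs of 1 gene only, the median extension was 1299 bp upstream of the TSS (1246 to 1390 bp). Downstream it was 2064 bp (1974 to 2144 bp), and 66.1% (64.2% to 67.9%) extended farther downstream. The window is the same on both sides of a TSS, but further TSSs of a gene lie only downstream of its most upstream one. Whether this contributes to the asymmetry was not tested. The asymmetry was present at promoters with a CGI, where medians were 1598 bp upstream and 2419 bp downstream, and at promoters without one, where they were 968 and 1438 bp.

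**Figure D1:**
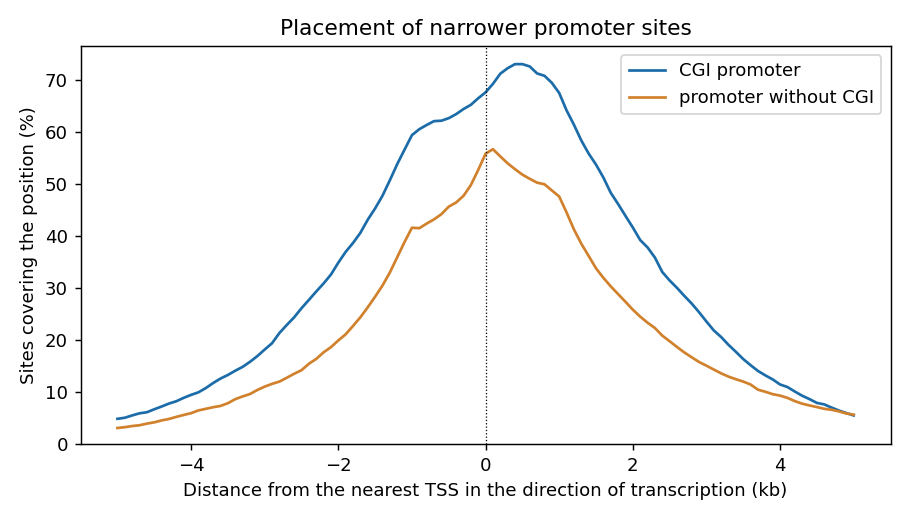
Share of the narrower promoter sites that cover each position around their nearest TSS (vertical axis, percent of sites), against the distance from that TSS in kb with positive values in the direction of transcription (horizontal axis), for 2457 sites at CGI promoters and 3234 sites at promoters without a CGI. Both curves are higher downstream than upstream, and the bends at 1 kb on either side come from the window used to choose the sites.

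Of the 5691 sites, 2457 (43.2%, 41.9% to 44.5%) were at a promoter with a CGI within 1 kb of the TSS and 3234 (56.8%) at promoters without one. A CGI was a segment of the repeat-masked sequence, 200 bp or longer, that reached 50% GC and a ratio of observed to expected CpG of 0.6. The sites at CGI promoters were wider, with a median of 2916 bp (2779 to 3080 bp) against 1482 bp (1388 to 1564 bp). A TSS lay inside 67.6% (65.7% to 69.4%) of the CGI sites and inside 55.8% (54.1% to 57.5%) of the others. CGI sites made up 24.6% of the sites under 500 bp and 58.1% of those of 5000 bp or wider.

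**Figure D2:**
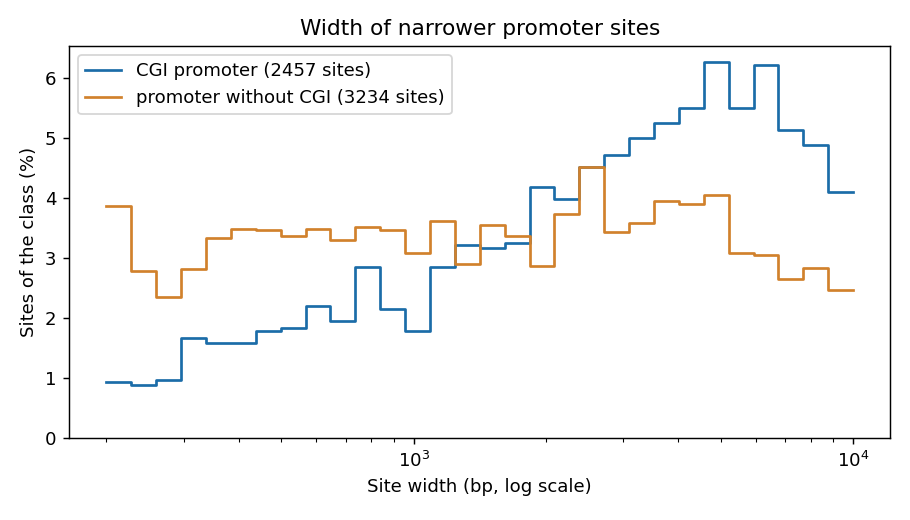
Width of the narrower promoter sites in bp on a log scale (horizontal axis) and the share of sites of each class in equal log-width bins (vertical axis, percent), for sites at promoters with and without a CGI. Sites at CGI promoters are concentrated above the overall median of 2076 bp, while the others spread almost evenly over the range.

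The sites themselves, and not only the promoters they touch, were CpG-rich compared with the rest of the list. The median ratio of observed to expected CpG within a site was 0.277 (0.272 to 0.283), against 0.202 (0.199 to 0.206) for 5437 narrower sites at TSSs of other transcripts only and 0.177 (0.177 to 0.178) for 82612 narrower sites away from all TSSs. The median GC content followed the same order, at 50.3%, 48.2% and 47.6%. A CGI was touched by 2017 sites (35.4%, 34.2% to 36.7%), but by 3.77% and 0.366% of those other classes. The 1075 broader sites at protein-coding promoters, of 10000 bp or more and thus larger targets, had a median CpG ratio of 0.263 (0.256 to 0.270), and 68.4% of them touched a CGI. Within the narrower promoter sites the ratio was 0.440 with a CGI at the promoter and 0.204 without, and the latter value is close to that of narrower sites at other TSSs.

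A whole CGI within 1 kb of a contained TSS lay inside 1453 sites (25.5%), which together spanned 1534 islands. Pcdh8 (CGI of 2966 bp), Ajm1 (2887 bp), Sox21 (2757 bp) and Tmem132e (2666 bp) were among those with the longest islands. Sox21 encodes a neural HMG-box factor. Its site was 4766 bp wide (14:118233518-118238283). Pdgfb, the gene of a platelet-derived growth factor chain, and Inhbb, which encodes an inhibin and activin subunit, followed with islands of 2627 and 2583 bp inside sites of 6127 and 5419 bp.

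Narrower promoter sites were seldom single. Another listed site lay within 3 kb of 4442 of them (78.1%, 77.0% to 79.1%), and 204 (3.59%) had a broader site that near, close to the 3.40% of narrower sites away from all TSSs. The figure for narrower sites away from all TSSs was 87.0%, and that for broader promoter sites 94.5%. Conversely 707 narrower promoter sites (12.4%, 11.6% to 13.3%) had no listed site within 10 kb on either side, against 5.31% (5.16% to 5.46%) of narrower sites away from TSSs. The isolated sites were more frequent at CGI promoters, where they made up 19.5% (18.0% to 21.2%), than at the others, where they made up 7.02% (6.19% to 7.95%). By width, isolation was least frequent in sites of 5000 bp or more, at 4.37%.

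The widest isolated sites that contain a TSS belonged to genes of several kinds. Matk, which encodes a kinase acting on Src-family kinases, had a site of 9574 bp (10:81251454-81261027), and Slc6a2, the noradrenaline transporter gene, one of 9348 bp. Vgf, the gene of a neuropeptide precursor, had 8595 bp and Asic2, which encodes an acid-sensing ion channel, 8331 bp. These promoters had a CGI. Of the 10 widest isolated sites 3 had none, those of Nkpd1, of Nmur1, the gene of a neuromedin receptor (8465 bp), and of Cldn14.

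Among 20722 protein-coding genes on these chromosomes, 4406 (21.3%) had a narrower promoter site, and 3217 (15.5%) had a TSS inside one. A broader promoter site was found at 1181 genes (5.7%), of which 203 had both kinds, and 15338 genes had neither. Most genes with narrower sites had a single one, 3316 of the 4406, while 807 had 2 and 204 had 3. Ttn, the gene of the sarcomere protein titin, had 10 separate narrower sites at its annotated TSSs. Rab15, Satb1, R3hdm2 and Apba2 were among the genes with 6. Genes with more annotated TSSs offer more windows, and the share with a narrower site ran from 20.6% of genes with 1 TSS position to 25.3% of genes with 7 or more. A single site served 1 gene in 5493 cases, 2 genes in 194 and 3 genes in 4. Of 106 sites with TSSs of more than 1 gene inside, 54 held a divergent pair, such as that of the collagen genes Col4a3 and Col4a4 (1922 bp, 1:82585750-82587671).

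The share of genes with a narrower site differed little between genes with and without a CGI, and the relation to CpG content was not monotonic. Of 12125 genes with a CGI, 20.1% had a narrower promoter site, against 22.9% of 8597 genes without one. Broader sites were at 6.42% and 4.68% of these genes. Over the 1000 bp centred on the most upstream TSS, that TSS lay inside a narrower site for 7.73% (6.54% to 9.11%) of genes with a CpG ratio under 0.1. The share rose to 23.9% (21.7% to 26.3%) for ratios from 0.4 to under 0.5 and came down to 5.96% (4.97% to 7.12%) for ratios of 0.9 and above. The promoters most often covered thus had an intermediate CpG ratio, and the most CpG-rich promoters were covered about as seldom as the poorest ones, with overlapping intervals. Broader sites were counted within 1 kb of that TSS instead, and ranged from 2.46% to 7.12% over the same classes.

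**Figure D3:**
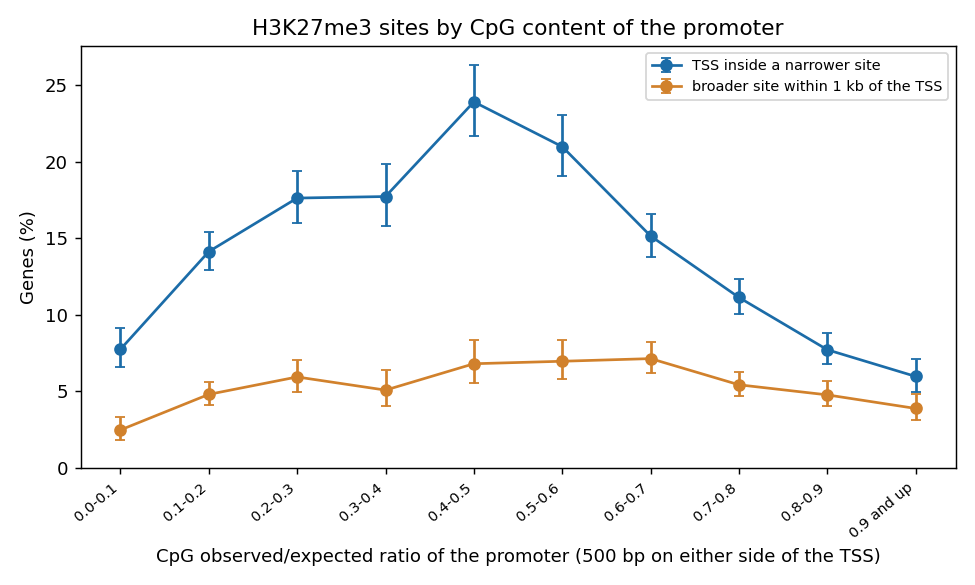
Share of protein-coding genes whose most upstream TSS lies inside a narrower site, or within 1 kb of a broader site (vertical axis, percent with 95% Wilson intervals), by the ratio of observed to expected CpG in the 500 bp on either side of that TSS (horizontal axis). The narrower sites peak at 23.9% between ratios of 0.4 and 0.5 and fall to 5.96% at 0.9 and above.

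Short motifs in the 250 bp before to 50 bp after the most upstream TSS were counted on both strands. They were counted in 1547 CGI promoters with that TSS inside a narrower site and in all 12125 CGI promoters, of which the former are part. Here CGI promoters are those of genes with a CGI within 1 kb of any protein-coding TSS. The scanned TSS itself may thus lack one. As a ratio of shares, the larger differences were in motifs of factors that serve housekeeping promoters. The ETS core CCGGAAG was in 4.20% (3.31% to 5.32%) of the covered CGI promoters and in 16.7% (16.0% to 17.3%) of all. The core of the NRF1 palindrome, CGCATGCG, was in 10 covered promoters, or 0.646% (0.352% to 1.19%), against 3.69% (3.37% to 4.04%) of all. CGI promoters with a broader site resembled the covered ones for the ETS core, at 3.97%, and had an NRF1 share of 1.09% (0.556% to 2.15%).

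Other motifs differed less as a ratio. The CCAAT box was in 28.8% (26.6% to 31.1%) of covered CGI promoters and in 37.5% (36.6% to 38.3%) of all, and the GC box GGGCGG in 61.9% (59.5% to 64.3%) and 65.6% (64.7% to 66.4%). The repeat GAGAGAG was more frequent under narrower sites, at 13.1% (11.5% to 14.9%) against 9.77% (9.25% to 10.3%). Intervals overlapped for the TATA box core TATAAA (7.11% and 6.68%), the repeat CGCGCG (22.8% and 23.9%), the AP-1 site TGACTCA (3.17% and 2.87%) and the E-box CACGTG (8.40% and 10.3%). The motifs made mostly of C and G can share bases. At promoters without a CGI, TATAAA was in 16.6% (14.6% to 18.8%) of 1236 covered promoters and in 21.2% (20.3% to 22.0%) of all 8597, and GGGCGG in 20.2% (18.0% to 22.5%) and 14.8% (14.1% to 15.6%).

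Since covered promoters tended to have intermediate CpG ratios, the ETS core was also counted within classes of that ratio over all promoters. Between 0.6 and 0.8 it was in 4.54% (3.23% to 6.34%) of 705 covered promoters and in 18.2% (17.2% to 19.3%) of all 5451. At 0.8 and above the shares were 4.49% (2.69% to 7.39%) of 312 and 19.9% (18.7% to 21.1%) of 4474. Below a ratio of 0.2 the motif was rare in both, at 1.45% and 1.05% with overlapping intervals. For CCAAT the gap also appeared mainly in CpG-rich classes, at 24.0% (19.6% to 29.1%) against 35.3% (33.9% to 36.7%) from 0.8 upward. For GAGAGAG the intervals overlapped at 0.8 and above, at 8.65% (6.02% to 12.3%) against 7.71% (6.97% to 8.53%), and from 0.6 to 0.8, at 12.6% (10.4% to 15.3%) against 9.87% (9.11% to 10.7%). Below 0.2 they did not, at 15.8% (13.0% to 19.1%) against 10.5% (9.63% to 11.4%). A motif match is a stretch of letters and was not measured as a bound site.

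**Figure D4:**
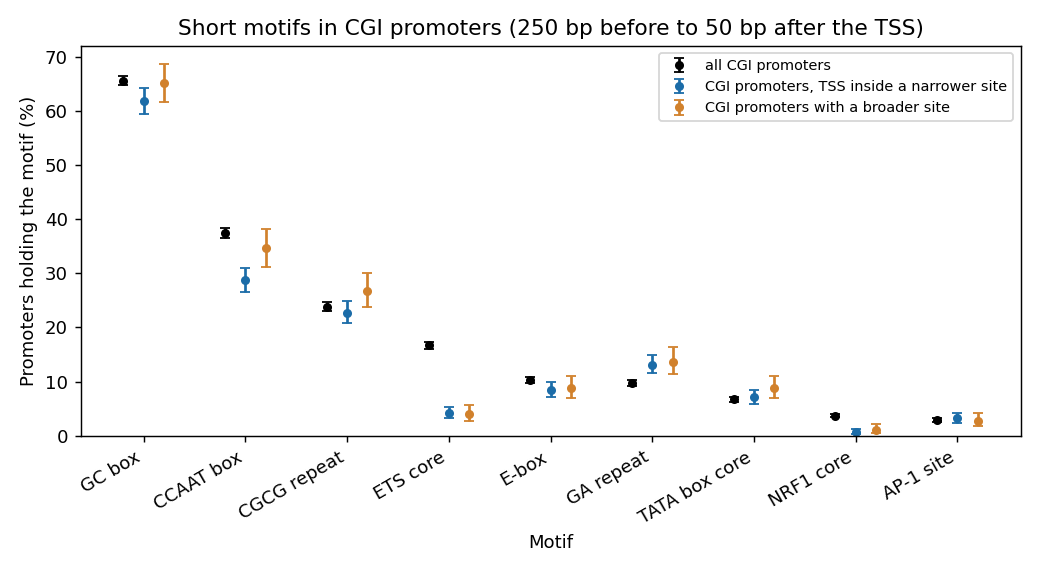
Share of CGI promoters that hold each short motif within 250 bp before to 50 bp after the most upstream TSS (vertical axis, percent with 95% Wilson intervals), for all CGI promoters, those with that TSS inside a narrower site, and those with a broader site. CGI promoters are those of genes with a CGI within 1 kb of any protein-coding TSS. The ETS core stands at 16.7% of all CGI promoters and at 4.20% and 3.97% under narrower and broader sites.

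Gene lists were read against the 21.3% of all protein-coding genes with a narrower promoter site, and the median widths against 2076 bp. Of all genes 5.7% had a broader site, 74.0% had neither kind and 15.5% had a TSS inside a narrower site. Lineage transcription factor genes split between narrower and broader sites. Of 18 Sox genes 9 had a narrower site (50.0%) and 4 a broader one. Sox7 (9385 bp), Sox17 (8032 bp) and Sox8 (7970 bp), which encode HMG-box factors of endoderm, endothelium and neural crest, had the widest. Of 64 neuronal transcription factor genes, of the bHLH and other families, 27 had a narrower site (42.2%) and 29 a broader one (45.3%). Neither kind was at 10 (15.6%). Insm1 (8982 bp), Zic5 (8355 bp) and Mesp1 (7980 bp) led, and Mesp1 is itself a regulator of early mesoderm and not of neurons. Of 21 T-box and GATA genes 9 had a narrower site (42.9%), with Tbx21, the T-helper regulator, at 7906 bp, Tbx2 at 7407 bp and Eomes at 6304 bp.

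Homeobox genes had broader sites more often than narrower ones, and the difference from the lists above was not tested. Outside the Hox clusters 37 of 151 had a narrower site (24.5%), close to the share of all genes, whereas 83 (55.0%) had a broader one against 5.7% of all genes. Pou4f2 (9264 bp), Irx6 (9075 bp) and Six6 (8966 bp), regulators of retina and other neural tissue among them, had the widest narrower sites, and the median over the list's 49 sites was 3946 bp. In the Hox clusters, which pattern the body axis, 21 of 39 genes had a broader site and 3 a narrower one (7.69%). All 3, Hoxd3, Hoxd4 and Hoxd8, are in the Hoxd cluster. The only narrower site with a Hox TSS inside was that of Hoxd8, of 392 bp. Of 41 forkhead genes 9 had a narrower site (22.0%) and 11 a broader one (26.8%), with Foxd1 at 6265 bp as the widest narrower site. The large family of C2H2 zinc finger genes named Zfp, many of them repressors of retroelements, had narrower sites at 39 of 383 (10.2%) and broader ones at 6.

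Genes of signalling ligands, receptors and modulators had narrower sites at a higher share than all genes. Broader sites were at a higher share than the 5.7% of all genes too. For fibroblast growth factors, their receptors and Sprouty antagonists the counts were 17 of 30 (56.7%) narrower and 3 broader. The widest were at Fgf9 (9947 bp, 14:58069253-58079199), Fgf8 (9896 bp) and Fgf12 (7727 bp), and the receptor genes Fgfr3 (7198 bp) and Fgfr4 (5970 bp) also had sites over their TSS. For ligands and antagonists of the TGF-beta superfamily the counts were 20 of 42 (47.6%) narrower and 5 broader. Gdf7 (9979 bp), Gdf6 (8611 bp) and Inhbe (8596 bp) led, and Bmp2 (7564 bp), Nodal (6038 bp) and the BMP antagonist gene Grem1 (1936 bp) had a site over the most upstream TSS. At Bmp4 the site, of 4503 bp, stopped 629 bp from the TSS.

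Of 47 genes for Wnt ligands, receptors and modulators 20 had a narrower site (42.6%) and 13 a broader one. Among ligands, Wnt4 (9287 bp), Wnt11 (8897 bp) and Wnt5b (6479 bp) had the TSS inside. Among receptors, Fzd10 did (5140 bp), while the sites at Fzd4 and Fzd9 ended 306 and 43 bp from a TSS. The Wnt antagonist genes Sfrp5 (7876 bp) and Dkk1 (5249 bp) had wide sites. Axon guidance genes had narrower sites at 31 of 68 (45.6%), but with the TSS inside at only 17 (25%, against 15.5% of all genes), and a median width of 2201 bp. Plxnc1 (8138 bp), Sema4d (7719 bp) and the ephrin gene Efna3 (7009 bp) led this list.

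Among the gene families, receptors of fast transmitters had the highest share. The list held 46 genes for ionotropic and metabotropic receptors of glutamate, GABA and glycine, which carry fast and modulatory transmission in the brain. Of these, 35 had a narrower site (76.1%, 62.1% to 86.1%), and 34 had a TSS inside one (73.9%, against 15.5% of all genes). A broader site was at 10 of the 46 (21.7%, against 5.7% of all genes), and 4 genes, Grik5, Gabra6, Gabrr2 and Gabbr1, had neither. The median width of the list's 44 sites was 2906 bp. Grm6 (8062 bp), Grin2b (7513 bp) and Grin3a (6539 bp) had the widest, and Grm6 is the glutamate receptor gene of retinal ON bipolar cells. The sites at Gria1 (2888 bp), Gria2 (3080 bp) and Gria4 (2923 bp), which encode AMPA receptor subunits, were alike in width, and each contained the most upstream TSS. Of these, the Gria4 promoter has a CGI and the others have none. Gabra4 and Gabrb1 are divergent neighbours and share 1 site of 3536 bp, so that they are not separate cases. Gabrb2 had 3 short sites, of 252, 507 and 827 bp.

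Potassium channel genes had narrower sites at 44 of 91 (48.4%) and broader ones at 40 (44.0%, against 5.7% of all genes). Both kinds were at 6 and neither at 13 (14.3%, against 74.0% of all genes). Kcnk13 (9999 bp), Kcnma1 (9386 bp), the gene of the large-conductance calcium-activated channel, and Kcne3 (9240 bp), which encodes an accessory subunit, had the widest. Sodium and calcium channel genes were at 12 of 38 (31.6%, 19.1% to 47.5%), an interval that includes 21.3%, and at 6 (15.8%, against 17% of all genes) once sites under 1000 bp apart were merged. A broader site was at 13 of them. The widest narrower sites over a TSS were at Cacna1a (7809 bp) and Cacna1b (6840 bp), the genes of the P/Q-type and N-type calcium channel pores. Receptors for acetylcholine, monoamines and other small molecules were at 33 of 69 (47.8%), against 17 with a broader site, led by the nicotinic subunit genes Chrnd (8524 bp), Chrna5 (7464 bp) and Chrna2 (7240 bp). Solute carrier genes were at 123 of 368 (33.4%). Slc17a7, the vesicular glutamate transporter gene of cortical neurons, had 9559 bp. Adhesion G protein-coupled receptor genes were at 7 of 25 (28.0%, 14.3% to 47.6%) with a median width of 821 bp. The clustered protocadherin genes were at 8 of 57 (14.0%, 7.29% to 25.3%) with a median of 646 bp and no broader site. The intervals of both lists include 21.3%.

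Genes of differentiated epithelia and of matrix include lists with few CGIs. Keratin genes had narrower sites at 22 of 53 (41.5%). Once sites under 1000 bp apart were merged they were at 11 (20.8%, against 17% of all genes in that setting). Once those under 3000 bp apart were merged they were at 7 (13.2%, against 12.9% of all genes). A CGI is at 2 of the 22 and at 6 of the 53, and Krt12, the keratin gene of corneal epithelium, had the widest (9048 bp, 11:99413797-99422844). Collagen genes had them at 17 of 42 (40.5%), with a CGI at 7 of the 17 and at 18 of the 42, and with Col22a1 (9507 bp) and Col23a1 (8157 bp) leading. Metalloproteinase and ADAMTS genes had them at 14 of 46 (30.4%), with a CGI at 13 of the 14 and at 29 of the 46, and with Adamts15 at 9150 bp. Cytochrome P450 genes had them at 25 of 99 (25.3%, 17.7% to 34.6%), an interval that includes the share of all genes, as does that of the metalloproteinase list (19.1% to 44.8%). Among these Cyp26a1, which degrades retinoic acid, had 9365 bp and Cyp11a1, the enzyme that starts steroid synthesis, 8280 bp. Olfactory and vomeronasal receptor genes, which lie in large clusters and nearly all lack a CGI, had them at 122 of 1453 (8.40%), with a median width of 899 bp.

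**Figure D5:**
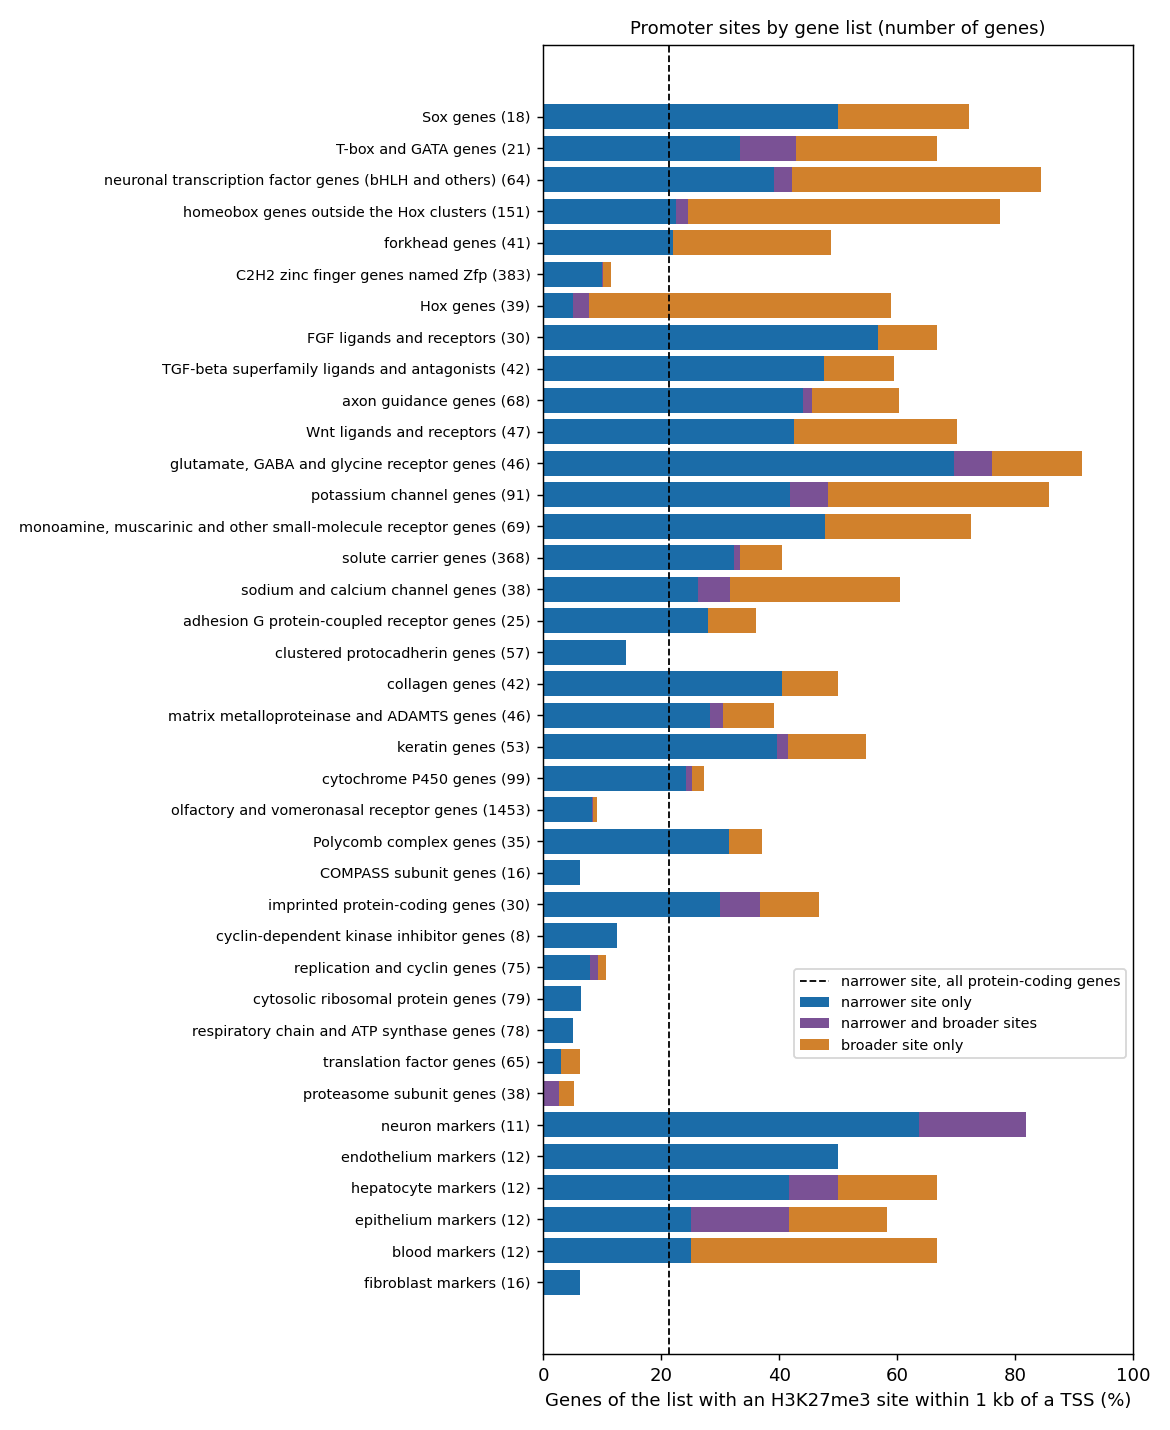
Share of the genes of each list with an H3K27me3 site within 1 kb of a TSS (horizontal axis, percent), split into genes with narrower sites only, with both kinds and with broader sites only, for the lists on the vertical axis with their number of genes. The dashed line is the 21.3% of all protein-coding genes with a narrower site, and glutamate, GABA and glycine receptor genes (76.1%) lie farthest above it among the lists of more than 11 genes while the housekeeping lists lie below.

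Genes used by all dividing cells had few narrower sites. Cytosolic ribosomal protein genes had one at 5 of 79 (6.33%), with the TSS inside at 3. One of these 3, Rpl3l, is a striated muscle paralog of Rpl3, and the site at Rpl3 itself (3608 bp) is shared with the neighbouring gene Syngr1. The site near Rpl38 stopped 990 bp from the TSS. Respiratory chain and ATP synthase genes had one at 4 of 78 (5.13%), among them Cox8c and Cox6b2, isoforms of testis. Translation factor genes had one at 2 of 65, at Eif4e3 (5347 bp) and Eif4g3 (2866 bp), and proteasome genes at 1 of 38, the immunoproteasome gene Psmb8. Replication and cyclin genes had one at 7 of 75 (9.33%), with the TSS inside at Cdc14b (2599 bp), Cdc20b and Ccna1, the cyclin gene of the germ line. Of 8 cyclin-dependent kinase inhibitor genes 1 had a site (12.5%, 2.24% to 47.1%), an interval that includes the share of all genes. It was at the imprinted gene Cdkn1c (3849 bp), and Cdkn2a and the others had none.

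Among chromatin regulators, Polycomb complex genes had narrower sites at 11 of 35 (31.4%, 18.6% to 48.0%), an interval that includes the share of all genes. The TSS was inside at 7 of them (20% of the list, against 15.5% of all genes). With the centre of the site inside the window, narrower sites were at 5 of 35 (14.3%, against 15.5% of all genes in that setting). Phf19, which encodes a PRC2-associated protein, had 9022 bp (2:34911445-34920466), L3mbtl4 8434 bp and Phc2, a PRC1 subunit gene, 5410 bp. At Ezh1, the gene of a catalytic subunit, the site of 5619 bp ended 884 bp from the TSS. Of 16 COMPASS subunit genes 1 had a site (6.25%, 1.11% to 28.3%), an interval that also includes the share of all genes. It was at Ash2l, whose endogenous copy is knocked out in these cells. That site was 255 bp wide (8:25848512-25848766), lay 818 bp upstream of the TSS without reaching it, and is also within the window of the neighbouring gene Kcnu1. Imprinted protein-coding genes had narrower sites at 11 of 30 (36.7%). Plagl1 (9926 bp), Grb10 (9548 bp) and Igf2 (5029 bp) had the widest, and Peg3 and Usp29 share 1 site of 2040 bp.

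Marker genes were used to check the labelled cell type, again beside the 21.3% of all genes. Of 16 fibroblast markers 1 had a narrower site (6.25%, 1.11% to 28.3%), Pdgfra, with 810 bp at an alternative TSS and not at its most upstream one, and none had a broader site. Markers of cell types other than the labelled one had narrower sites at 9 of 11 genes for neurons (81.8%, 52.3% to 94.9%), 6 of 12 each for endothelium and hepatocytes (50.0%, 25.4% to 74.6%), 5 of 12 for epithelium (41.7%, 19.3% to 68.1%) and 3 of 12 for blood (25%, 8.89% to 53.2%). The intervals for fibroblasts, epithelium and blood include the share of all genes, so that these counts alone do not set them apart from it. Among sites of at least 1000 bp the counts were 2 of 12 for hepatocytes (16.7%, against 16.8% of all genes) and 3 of 12 for endothelium. The hepatocyte and endothelium counts thus rest in large part on shorter sites. In the same setting the counts were 8 of 11 for neurons, 4 of 12 for epithelium, 2 of 12 for blood and 0 of 16 for fibroblasts. The neuronal marker genes without one were Map2 and Tubb3. Nefl (6778 bp) and Nefm (5182 bp), neurofilament genes, Kdr (5536 bp), the endothelial VEGF receptor gene, Cdh1 (2916 bp) and Epcam (3410 bp) of epithelium and Hnf4a (9028 bp) of liver had the TSS inside. At hepatocyte genes coding for secreted proteins the sites over a TSS measured 1155 bp at Apob, 570 bp at Apoa1, 468 bp at F2 and 328 bp at Ttr. Of the 5 other blood markers with a site, each had only a broader one.

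The genes whose promoters or primers appear in the study were mostly outside the set. Zfp503 had a narrower site of 1285 bp (14:21988799-21990083). Egr1, Rspo2, Rab8a, Il7, Nrf1 and Ppbp had neither a narrower nor a broader listed site within 1 kb of a TSS. The list gives called sites only, so that signal below the authors' cutoff would not appear in it. Genes that RefSeq also places on a fix patch of the assembly had a narrower site at 4 of 236 and a broader one at none, against 21.3% and 5.7% of all genes. Of the 236, 29 are in the gene lists, and their counts are included above.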

How the data were processed

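Sites were taken from the 1 list of H3K27me3 sites deposited by the authors, whose only columns are coordinates, namely the chromosome, start and end on mm10. By the study's methods, the steps the authors took were trimming (Trim Galore), alignment to GRCm38.p6 (BWA, GENCODE M25), filtering (samtools), merging of replicates (Picard) and calling of broad peaks (MACS, in modified nf-core code). Libraries were matched to the lowest coverage. Versions, cutoffs and how peaks of different samples were combined are not given in the sources used here, and such a caller sets both a minimum width and the gap it bridges. With no counts per library, no test between groups and no replicate error were possible. A separate list of changed sites was not used here.

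Starts were read as 0-based, an inference from the smallest width of 200 bp, and positions are printed 1-based. TSSs came from GENCODE M21 and sequence from the RefSeq copy of GRCm38.p6 (15648 CpG islands on chromosomes 1 to 19). A gene had a site if any of its protein-coding TSSs did. The analysis used Python 3.11.15, numpy 2.4.6 and pandas 2.3.3, and was tested on simulated positions and sequences. The number of per-sample columns left unused was 0. Members and gene lists were chosen with earlier results of these data known. Genes named in the text are the up to 3 of each list with the widest site over a TSS, the widest, narrowest, isolated and multiple sites, the longest islands spanned and genes named in the study. Further members of the lists, among them the receptor subunits, growth factors and genes of single counts, were named after their values were seen. Printed sequences were kept only where no base lies in an annotated exon.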

Additional observations from a re-analysis of the deposited data

How the results depend on the processing

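The number of sites was 3750 after merging sites under 1000 bp apart and 2690 after merging those under 3000 bp apart, and stayed within 1.5 times of 5691 in the other settings. For the settings centre inside the window, window of 500 bp, window of 2 kb, width under 5000 bp, under 20000 bp, at least 500 bp, at least 1000 bp, merging at 1000 bp, merging at 3000 bp and most upstream TSS only, in this order, the share of genes was 15.5, 18.9, 25.1, 16.7, 24.2, 19.3, 16.8, 17, 12.9 and 19.2%, and the median width 1518, 2597, 1493, 1392, 2544, 2701, 3450, 3165, 3512 and 2370 bp. The share containing a TSS was 70.0, 76.1, 43.3, 52.9, 64.8, 69.0, 76.6, 70.4 and 73.2% in all but the last of these. The CGI share was 45.7, 41.6, 39.2, 45.1, 46.9, 50.1, 48.4, 53.1 and 48.9% in all but the first. The median GC content was 50.9, 50.8, 49.5, 50.0, 50.0 and 50.5% with the centre inside, the windows of 500 bp and 2 kb, both mergings and the most upstream TSS. The share with a neighbour was 75% with the centre inside, 81.0% with a window of 2 kb, 75.4% under 5000 bp, 79.8% under 20000 bp and 76.2% at the most upstream TSS, 45.0% after merging at 1000 bp and 0% by construction after merging at 3000 bp, and 64.1% and 87.6% with gaps of 1 kb and 10 kb. The cause was not tested, except that width limits and windows change which sites are counted.

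Of 38 lists, 19 stayed above and 12 below the share of all genes in each of the 10 settings, and 7 changed side in at least 1 setting. The counts themselves moved more: by over 1.5 times for 28 of 39 counts (the lists and all genes) after merging at 3000 bp and for 14 with the centre inside the window. After merging at 3000 bp keratin and cytochrome P450 genes were barely above, at 13.2% and 13.1% against 12.9%. Homeobox genes outside the Hox clusters and forkhead genes were below it with the centre inside the window, with widths under 5000 bp and after either merging, and forkhead genes also with a window of 2 kb. Polycomb genes were below it with the centre inside, sodium and calcium channel genes after merging at 1000 bp, adhesion receptor genes and hepatocyte markers with widths of at least 1000 bp, and blood markers in 4 settings. The values rest on 1 pooled list of unknown depth. No paired analysis was possible because the list holds no value of a single library, and leaving out single replicates was not run for the same reason.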

Other observations

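Chromosome X, which was outside the rule, carried 293 narrower sites at protein-coding promoters. They were at 217 of 948 genes (22.9%, 20.3% to 25.7%), a share whose interval includes the 21.3% of chromosomes 1 to 19. Their median width was 1100 bp, against 2076 bp on chromosomes 1 to 19.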
